A study of Rattus norvegicus with 12 samples.

Results

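Transcripts of 10 genes of bile acid synthesis and conjugation (Cyp7a1, Cyp8b1, Cyp27a1, Cyp39a1, Hsd3b7, Akr1d1, Acox2, Amacr, Slc27a5 and Baat) were followed in rat liver on 1-colour Affymetrix arrays. They were chosen by name: every probe set that the platform annotation assigned to 1 of these symbols alone was taken. This gave 11 probe sets of the 31042 on the array, 1 for each gene and 2 for Akr1d1, and no probe set carried a listed symbol together with another. All 11 passed the filter on low signal, so all 10 genes were among the 9300 genes tested. The livers came from 12 animals in 4 groups of 3, with 1 array per animal: germ-free Sprague Dawley rats (animals 1, 3 and 4), normal Sprague Dawley rats that were not germ-free, called conventional here (6, 7 and 8), untreated Han Wistar control rats (1, 2 and 3), and Han Wistar rats that drank water with streptomycin and penicillin over 8 days, up to necropsy (13, 14 and 15). Age, sex, diet and time of collection are not in the labels, so germ-free state and any such difference between the Sprague Dawley groups cannot be told apart. Strain and experiment coincided, so each treated group was compared with the control of its own strain, and levels across strains are given as a description.

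Hepatocytes turn cholesterol into bile acids by a chain of enzymes in the endoplasmic reticulum, mitochondria and peroxisomes. The chain starts with a hydroxylation that sets the rate, goes on with changes to the sterol ring and a shortening of the side chain, and ends with the attachment of taurine or glycine. Gut bacteria remove that taurine or glycine and alter the ring, and bile acids returning to the gut wall and liver restrain the first enzyme, partly through a growth factor released by the ileum that acts on the receptor Fgfr4 in liver. The comparisons therefore ask how the transcripts of these enzymes differ in livers of rats without microbes and of rats given antibiotics.

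All values are MAS5 signals, a linear brightness whose trimmed mean was nearly the same on all 12 deposited arrays. Changes are differences of mean log2(signal + 16), which understates those of dim genes, given with standard errors (3 against 3 animals), and adjusted p-values are from limma with Benjamini-Hochberg adjustment over all 9300 genes. Intervals are 95% intervals of single genes, not adjusted for the number of genes. Signals of different probe sets were not set against each other. In whole liver, fewer cells of a type and less RNA per cell cannot be told apart. All 7 hepatocyte markers tested, among them the albumin gene Alb, were present, with summed signals of 31122 to 59328 over the 12 animals. RNA quality was read from actin probe sets at both ends of the transcript; the 3' over 5' ratio, higher in degraded RNA, was 4.39 ± 0.762 (SD, n = 3) in germ-free, 5.37 ± 0.839 in conventional, 2.55 ± 0.123 in untreated and 2.73 ± 0.131 in antibiotic-treated livers. The exact permutation test gave a two-sided p of 0.2 in each comparison, where 3 against 3 animals cannot go below 0.1, so it could not show a difference. The means of treated and control animals lay further apart than either SD in both comparisons. With the ratio added to the model, 1 of the 10 enzymes (Acox2) passed in germ-free livers in place of 2, and 606 genes in place of 1226. Of 6 endothelial markers tested, 5 rose in germ-free livers by limma (median log2 change 0.93), with summed signals of 1279 to 1803 in germ-free and 697.2 to 879.5 in conventional livers. In the same livers 4 of 9 periportal genes also rose (Sds 4.05, Hal 1.23, Cyp2f4 0.94 and Gls2 0.52; list median 0.52), with summed signals of 28808 to 33444 against 18086 to 23643. Of 8 pericentral genes 1 fell (Lect2, -0.70; list median 0.08, 18023 to 20851 against 18035 to 20288), and of 6 macrophage markers 1 fell (Clec4f, -0.64; list median -0.12, 1168 to 1619 against 1607 to 2431). These genes are named because they passed, chosen after their values were seen, beside 6.44% of all genes that rose and 6.74% that fell. No gene of these lists was at 0 in every animal, and their part in the results below was not tested.

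In germ-free livers 2 of the 10 enzymes rose, Cyp7a1 and Acox2, 0 fell and 8 did not pass limma's test. Of all genes, 13.2% passed in either direction, 6.44% rose and 6.74% fell, so 2 of 10 is near the share among all genes. The median log2 change of the 10 enzymes was -0.04, beside 0.02 over all genes. The animals of both groups did not overlap for 4 enzymes (Cyp7a1, Acox2, Amacr and Baat), all higher in germ-free livers, where 29.9% of all genes did not overlap and 15.4% did so in the higher direction. In antibiotic-treated livers 0 of the 10 enzymes passed by limma, with 2 (Cyp8b1 and Baat) at an unadjusted p under 0.05, and 0.0215% of all genes passed (2 genes, with 969 at an unadjusted p under 0.05). The groups did not overlap for 2 enzymes there, Cyp8b1 and Slc27a5, both higher, where 18.3% of all genes did not overlap, 9.19% higher and 9.12% lower. The median log2 change of the enzymes was 0.12, beside 0.00 over all genes.

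**Figure D1:**
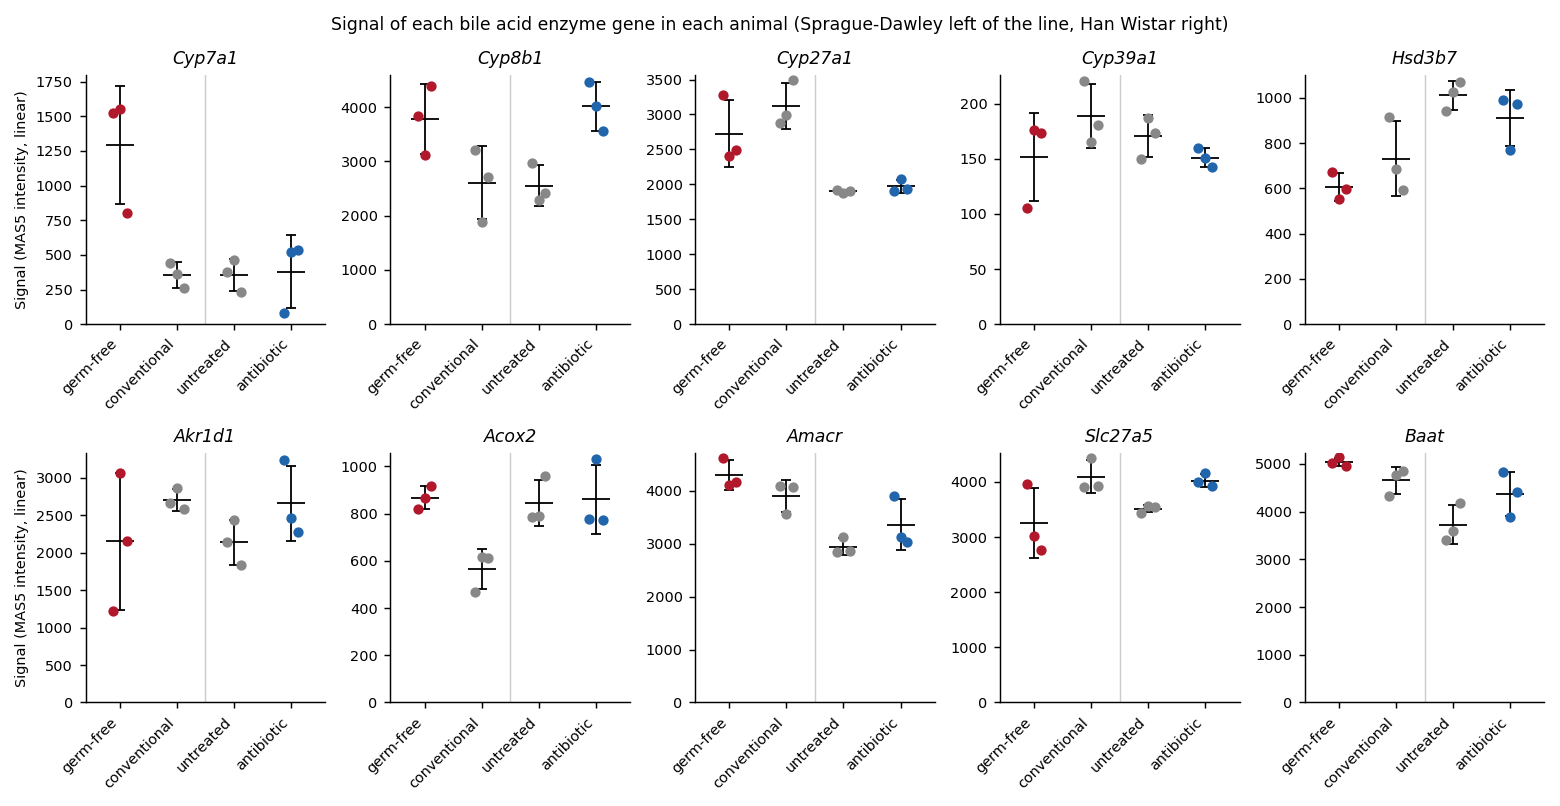
Signal (linear MAS5 intensity, vertical axis from 0) of each of the 10 genes in each animal, with 1 panel per gene. Points are animals, horizontal bars are group means and whiskers are SDs (n = 3); for Akr1d1 the brighter probe set is shown. Cyp7a1 lay between 800.2 and 1554 in germ-free livers and did not pass 538 in any other group, while most other enzymes stayed within a narrow range.

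The first step has the widest range of all enzymes described here. Cyp7a1 (probe set 1368458_at), cholesterol 7-alpha-hydroxylase and the rate-limiting enzyme of the classic pathway, had signals of 1522, 1554 and 800.2 in germ-free animals 1, 3 and 4 and of 439.0, 365.6 and 259.5 in conventional animals 6, 7 and 8. The lowest germ-free animal stood above the highest conventional one, and the ratio of the group means was 3.64. The log2 change was 1.79 ± 0.53 (95% interval 0.66 to 2.92, adjusted p = 0.0386 by limma).

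This call was lost in several alternatives, although its direction held in all 25 (log2 1.59 to 2.10), of which 17 passed. The adjusted p by limma rose to 0.0936 on leaving out germ-free animal 1, to 0.134 on leaving out germ-free animal 3, and to 0.0561, 0.0790 and 0.113 on leaving out conventional animals 6, 7 and 8. The call was also lost with no signal filter (0.0639), under a robust prior (0.113) and on adding the actin ratio to the model (0.147). The wide spread of the antibiotic-treated animals enters the pooled error of Cyp7a1: without antibiotic animal 13 the germ-free call had an adjusted p of 0.00130, and on the 6 Sprague Dawley arrays alone of 0.00268 (limma).

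In Han Wistar livers Cyp7a1 read 375.4, 462.3 and 229.8 in untreated animals 1, 2 and 3, and 78.3, 523.3 and 537.5 in antibiotic-treated animals 13, 14 and 15. Animal 13 was the lowest of all 12 animals, while the other 2 treated animals stood above every untreated one. The log2 change was -0.24 ± 0.53 (95% interval -1.37 to 0.89, adjusted p = 0.933 by limma). Its sign turned without animal 13 (0.61, adjusted p = 0.613), so that no direction can be read from these 3 animals. The germ-free and antibiotic changes of Cyp7a1 differed by 2.02 ± 0.74 on the log2 scale, which did not pass after adjustment (unadjusted p = 0.0167, adjusted p = 0.131 by limma). The 2 control groups had nearly the same Cyp7a1 signal, 354.7 ± 90.2 in conventional and 355.8 ± 118 in untreated livers (SD, n = 3). From high to low the groups ran germ-free, antibiotic, untreated and conventional, and only the step from germ-free to the rest had no overlap.

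Cyp7a1 is known to follow the time of day, and clock genes differed in the same livers. In germ-free livers 5 of 13 clock genes tested rose, 2 fell and 6 did not pass by limma. Among all genes 6.44% rose and 6.74% fell there. Dbp, an output factor of the clock that is known to act on Cyp7a1, changed by 1.81 ± 0.23 (1.099 with an offset of 64), Nr1d2, a clock repressor, by 1.80 ± 0.24 and Cry1, a core repressor, by -1.31 ± 0.17. In antibiotic-treated livers 0 of the 13 passed by limma, with 0 at an unadjusted p under 0.05. The part of the clock genes in the Cyp7a1 result was not tested.

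Cyp27a1 and Cyp39a1, hydroxylases of other routes, did not pass in either comparison. Cyp27a1 (1387914_at), the mitochondrial sterol hydroxylase that starts the alternative pathway and oxidises the side chain in both, read 3276, 2408 and 2492 in germ-free animals and 2877, 2990 and 3491 in conventional ones. Germ-free animal 1 lay within the conventional range and the other 2 below it. This was a log2 change of -0.20 ± 0.12 (adjusted p = 0.276 by limma), and without germ-free animal 1 it was -0.34 and passed (adjusted p = 0.0396).

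In Han Wistar livers Cyp27a1 was among the steadiest of the enzymes. Its signals were 1924, 1877 and 1903 in untreated and 1901, 2079 and 1931 in antibiotic-treated animals, a log2 change of 0.05 ± 0.12 (95% interval -0.20 to 0.30, adjusted p = 0.937 by limma). The conventional Sprague Dawley animals stood above all untreated Han Wistar animals, with a ratio of control means of 1.64, the highest of the 11 probe sets.

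Cyp39a1 (1385165_at), an oxysterol hydroxylase of a side route, read 105.4, 176.2 and 173.8 in germ-free and 220.7, 165.3 and 180.6 in conventional animals. Animals 3 and 4 lay within the conventional range and animal 1 far below it. This was a log2 change of -0.31 ± 0.17 (adjusted p = 0.245 by limma), and -0.09 without germ-free animal 1. The untreated Han Wistar animals read 150.0, 187.4 and 173.8 and the treated ones 159.9, 150.9 and 142.7, with overlap (log2 -0.15 ± 0.17, adjusted p = 0.813).

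**Figure D2:**
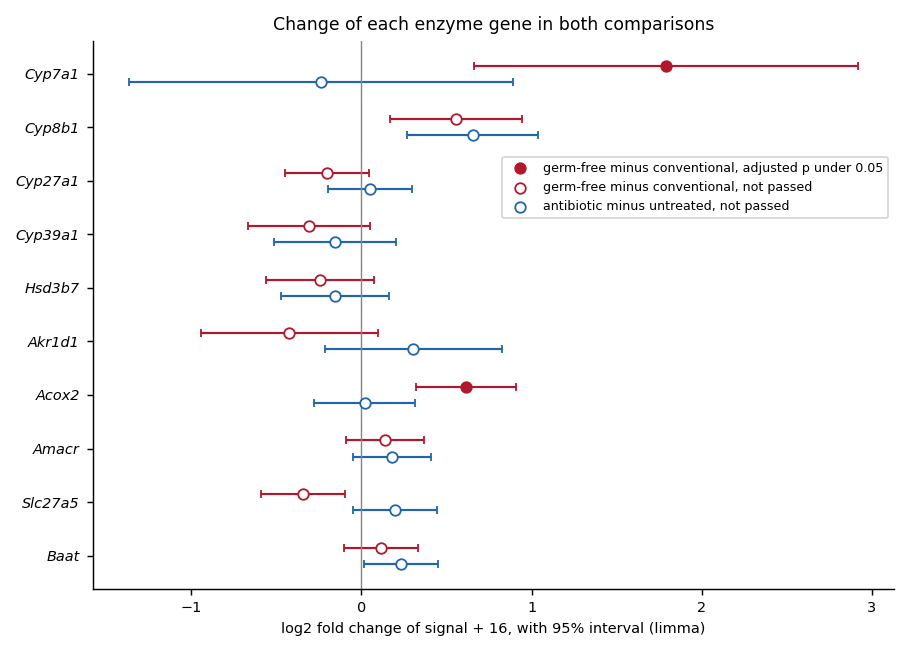
Log2 fold change of signal + 16 (horizontal axis) of each gene in germ-free against conventional livers (red) and in antibiotic-treated against untreated livers (blue), with 95% intervals from limma. Filled points passed at an adjusted p under 0.05: Cyp7a1 (1.79) and Acox2 (0.61) in germ-free livers. Cyp8b1 lay at 0.56 and 0.65 and did not pass in either.

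Among the enzymes that change the ring after the first step (Cyp8b1, Hsd3b7 and Akr1d1), none passed in either experiment. Cyp8b1 (1368435_at), sterol 12-alpha-hydroxylase, decides how much cholic acid is made relative to other bile acids, and is known to be repressed by returning bile acids through the nuclear receptors Nr5a2 (LRH-1) and Hnf4a at its promoter. Its signals were 3837, 3112 and 4392 in germ-free and 3216, 1881 and 2713 in conventional animals. Only germ-free animal 3 and conventional animal 6 crossed. The log2 change was 0.56 ± 0.18 (95% interval 0.17 to 0.94, adjusted p = 0.0567 by limma). It passed without conventional animal 6 (0.72, adjusted p = 0.0219) and with array weights (0.76, 0.0115), and stood at 0.34 (0.212) without conventional animal 7, the lowest of that group.

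In Han Wistar livers Cyp8b1 read 2976, 2279 and 2409 in untreated and 4466, 4029 and 3564 in antibiotic-treated animals. Every treated animal stood above every untreated one, and the ratio of the means was 1.57. The log2 change was 0.65 ± 0.18 (95% interval 0.27 to 1.04, unadjusted p = 0.00274, adjusted p = 0.199 by limma). It did not pass in any of 25 alternatives, in which it ran from 0.48 to 0.77. These comparisons share no animals, and the changes differed by -0.10 (95% interval -0.64 to 0.45, adjusted p = 0.869), an interval wide enough to hold a difference about as large as either change. The control groups lay close together, at 2603 ± 674 in conventional and 2555 ± 371 in untreated livers (SD, n = 3).

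The antibiotic values were also read under a second scaling of the arrays. All 7 hepatocyte markers were higher in antibiotic-treated livers at an unadjusted p under 0.05 (0 passed after adjustment by limma; median log2 0.41, summed signal 40931 to 50836 against 31122 to 37427), and the 100 brightest genes had a median of 0.34. Under quantile normalization, which gives all arrays the same distribution, these medians were 0.05 and 0.00. Cyp8b1 then stood at 0.48 (adjusted p = 0.408), while Amacr, Slc27a5 and Baat went from 0.18, 0.19 and 0.23 to -0.01, -0.03 and -0.02. Cyp8b1 thus kept most of its antibiotic value under both scalings, and these 3 enzymes did not. In germ-free livers 6 of the 7 markers were higher (median 0.17), and the 100 brightest genes had a median of 0.17. Under quantile normalization these medians were 0 and 0.01, and Amacr and Baat went from 0.14 and 0.12 to 0.10 and -0.01. Such values cannot tell a shift of whole arrays from a shared rise of bright genes, and the cause was not tested.

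**Figure D3:**
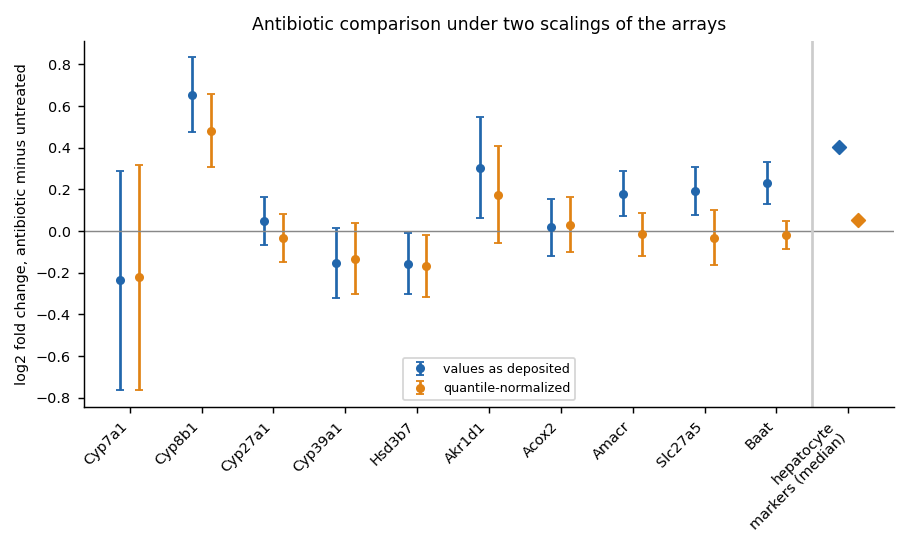
Log2 fold change of each gene in antibiotic-treated against untreated livers (vertical axis, ± SE) with the values as deposited (blue) and after quantile normalization (orange); diamonds are the median of 7 hepatocyte markers. Cyp8b1 moved from 0.65 to 0.48, and the marker median from 0.41 to 0.05.

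The promoter of Cyp8b1 is shown because it had the smallest unadjusted p of the 10 enzymes in the antibiotic comparison. That of Acox2 is shown because it passed in the germ-free comparison. That of Baat is shown because it alone held CAAAGTCCA, the only letter string searched as an HNF4 type motif. Each is the 250 bases before the gene's start in RefSeq's GRCr8 table, in the gene's direction, with motif matches in capitals. Cyp8b1 is at chr8:130457593-130457842 (minus strand), Acox2 at chr15:19090705-19090954 (plus strand) and Baat at chr5:68656138-68656387 (minus strand).
Cyp8b1: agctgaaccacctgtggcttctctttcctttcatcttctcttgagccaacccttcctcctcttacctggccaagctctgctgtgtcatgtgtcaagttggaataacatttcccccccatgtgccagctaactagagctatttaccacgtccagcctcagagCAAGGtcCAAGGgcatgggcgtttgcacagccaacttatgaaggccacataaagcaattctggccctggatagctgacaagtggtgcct
Acox2: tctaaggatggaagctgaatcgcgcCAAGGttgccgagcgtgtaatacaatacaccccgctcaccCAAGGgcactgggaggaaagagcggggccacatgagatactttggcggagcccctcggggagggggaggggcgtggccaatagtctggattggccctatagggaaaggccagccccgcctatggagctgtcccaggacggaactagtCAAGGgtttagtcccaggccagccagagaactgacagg
Baat: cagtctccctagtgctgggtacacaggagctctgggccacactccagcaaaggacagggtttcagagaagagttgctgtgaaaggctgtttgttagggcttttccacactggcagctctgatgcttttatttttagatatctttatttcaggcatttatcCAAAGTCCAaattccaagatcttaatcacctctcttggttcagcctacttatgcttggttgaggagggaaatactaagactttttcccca
The capitals mark CAAGG, the core of the half-site of Nr5a2 (LRH-1), and, in Baat, CAAAGTCCA, a letter string typical of Hnf4a sites. Cyp8b1 held CAAGG at 89 to 85 and at 82 to 78 bases before the start, with 2 bases between them, Acox2 held it at 3 places (225 to 221, 185 to 181 and 38 to 34), and Baat held CAAAGTCCA at 90 to 82.

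Both strands were searched, and the motifs were chosen with the sequences in view. Promoters of 8 of the 10 genes were in the table, and those of Cyp7a1 and Akr1d1 were not analysed here. CAAGG matched in 5 of the 8 and in 46.3% of all 33469 promoters of this length, so that its presence alone is common. AGGTCA, the half-site shared by many nuclear receptors, matched in 3 of 8 and in 14.1% of all, and in Cyp27a1 1 of its matches overlapped a CAAGG match. CAAAGTCCA matched in 1 of 8 and in 0.338% of all, and other forms of the HNF4 type site were not searched. The clock motifs TTATGNAA (D-box) and CACGTG (E-box) matched in 0 of 8, with 3.28% and 5.59% of all promoters holding them. These are matches of letters in a short window and were not tested as binding sites.

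Hsd3b7 (1370433_at), the dehydrogenase and isomerase that acts on the ring after the first hydroxylation, did not pass. Its signals were 671.4, 551.4 and 596.7 in germ-free and 913.7, 684.3 and 593.8 in conventional animals. The groups overlapped, and the log2 change of -0.24 ± 0.15 (adjusted p = 0.304 by limma) shrank to -0.07 without conventional animal 6. Among Han Wistar animals it read 942.9, 1024 and 1070 in untreated and 992.3, 767.5 and 974.1 in treated animals (log2 -0.16 ± 0.15, adjusted p = 0.778). All 3 untreated Han Wistar animals stood above all 3 conventional Sprague Dawley animals.

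Akr1d1, the steroid reductase that bends the ring into the shape of a bile acid, was the only enzyme with 2 probe sets, and these did not give the same direction. The brighter one (1398310_at) read 1228, 3070 and 2154 in germ-free and 2660, 2867 and 2586 in conventional animals, a log2 change of -0.42 ± 0.24 (adjusted p = 0.276 by limma). The conventional animals lay close together while germ-free animals 1 and 3 lay on either side of them, 2.50-fold apart. Without germ-free animal 1 the value was -0.07, and without germ-free animal 3 it was -0.73 (adjusted p = 0.0550). The dimmer one (1392384_s_at, a probe set whose probes may match more than 1 transcript) read 273.0, 806.0 and 522.8 in germ-free and 692.2, 545.8 and 255.1 in conventional animals, a log2 change of 0.08 ± 0.38 in a fit of every probe set (adjusted p = 0.944).

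In both probe sets of Akr1d1 germ-free animal 1 was the lowest and animal 3 the highest of the germ-free group. In Han Wistar livers the brighter probe set read 2139, 2435 and 1842 in untreated and 3235, 2461 and 2281 in treated animals (log2 0.30 ± 0.24, adjusted p = 0.725 by limma). The dimmer one read 859.9, 1164 and 599.5 against 1032, 1052 and 1386 (0.43 ± 0.38, adjusted p = 0.880). Neither separated the groups.

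Of the side chain enzymes Acox2 and Amacr, Acox2 passed in germ-free livers. Acox2 (1371137_at), the oxidase that acts on the side chain of bile acid intermediates, rose in germ-free livers. It read 821.0, 866.1 and 916.6 in germ-free animals and 466.8, 616.6 and 613.0 in conventional ones, without overlap and with a ratio of means of 1.53. On the log2 scale Acox2 rose by 0.61 ± 0.14 (95% interval 0.32 to 0.91, adjusted p = 0.00965 by limma). Acox2 was the only enzyme to pass in all 25 alternatives (log2 0.49 to 0.68, highest adjusted p 0.0399), and the only 1 of the 11 probe sets to pass when every probe set on the array was fitted without a filter (adjusted p = 0.0197, where 4.98% of all probe sets passed), a call lost there under median centring and on leaving out conventional 6, germ-free 3 or germ-free 4. In the same fit 0 of the 11 passed in the antibiotic comparison or in the difference, where 0.0129% and 1.6% of all probe sets passed.

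Under antibiotics Acox2 did not separate the groups. It read 786.7, 788.7 and 958.4 in untreated and 778.2, 1029 and 772.7 in treated animals (log2 0.02 ± 0.14, 95% interval -0.28 to 0.31, adjusted p = 0.988 by limma). The changes in the 2 experiments differed by 0.59 ± 0.19 (unadjusted p = 0.00853, adjusted p = 0.0889), which passed without antibiotic animal 14 (0.73, adjusted p = 0.0424). The conventional animals were the lowest of the 4 groups and stood below all others, so germ-free Sprague Dawley livers (867.9 ± 47.8, SD) lay near both Han Wistar groups (844.6 ± 98.6 and 860.0 ± 146).

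Amacr (1367775_at), the racemase that turns the side chain into the form the peroxisomal oxidase accepts, read 4623, 4100 and 4165 in germ-free and 4082, 3559 and 4072 in conventional animals. The groups did not overlap, though the lowest germ-free animal (4100) lay just above the highest conventional one (4082), and the log2 change was 0.14 ± 0.11 (adjusted p = 0.430 by limma). Among Han Wistar animals it read 2841, 3133 and 2857 in untreated and 3906, 3135 and 3027 in treated animals (0.18 ± 0.11, adjusted p = 0.609).

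The conjugation enzymes had small changes. Slc27a5 (1387325_at), the bile acyl-CoA synthetase that readies bile acids for conjugation, including those that return unconjugated from the gut, read 3966, 3022 and 2772 in germ-free and 3907, 4436 and 3929 in conventional animals. Germ-free animals 3 and 4 lay below all conventional animals and animal 1 within their range. The log2 change was -0.34 ± 0.11 (95% interval -0.59 to -0.10, adjusted p = 0.0639 by limma), and it passed without germ-free animal 1 (-0.49, adjusted p = 0.00393) and with array weights (-0.46, 0.00752). In the antibiotic experiment the untreated animals read 3440, 3558 and 3547 and the treated ones 3999, 4160 and 3917. These groups did not overlap, and the log2 change was 0.19 ± 0.11 (adjusted p = 0.608).

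Slc27a5 had opposite signs in the 2 experiments, and its difference of -0.54 ± 0.16 was the nearest to the threshold among the 10 enzymes (unadjusted p = 0.00521, adjusted p = 0.0683 by limma). It passed without germ-free animal 1 (-0.69, adjusted p = 0.00625) and with array weights (-0.65, 0.0114). No enzyme passed this test of the difference, with 3 (Cyp7a1, Acox2 and Slc27a5) at an unadjusted p under 0.05, where 5.94% of all genes passed, 2.69% higher and 3.25% lower. Under quantile normalization the difference for Slc27a5 was -0.34 (adjusted p = 0.321).

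Baat (1387508_at), the transferase that attaches taurine or glycine, was the most even of the enzymes in germ-free livers. It read 5020, 5139 and 4962 there and 4334, 4770 and 4856 in conventional animals. All germ-free animals stood above all conventional ones, yet the log2 change was only 0.12 ± 0.10 (95% interval -0.10 to 0.33, adjusted p = 0.490 by limma), and it was -0.01 under quantile normalization. The untreated Han Wistar animals read 3398, 3587 and 4189 and the treated ones 4821, 3892 and 4403, with overlap (0.23 ± 0.10, unadjusted p = 0.0400, adjusted p = 0.456).

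**Figure D4:**
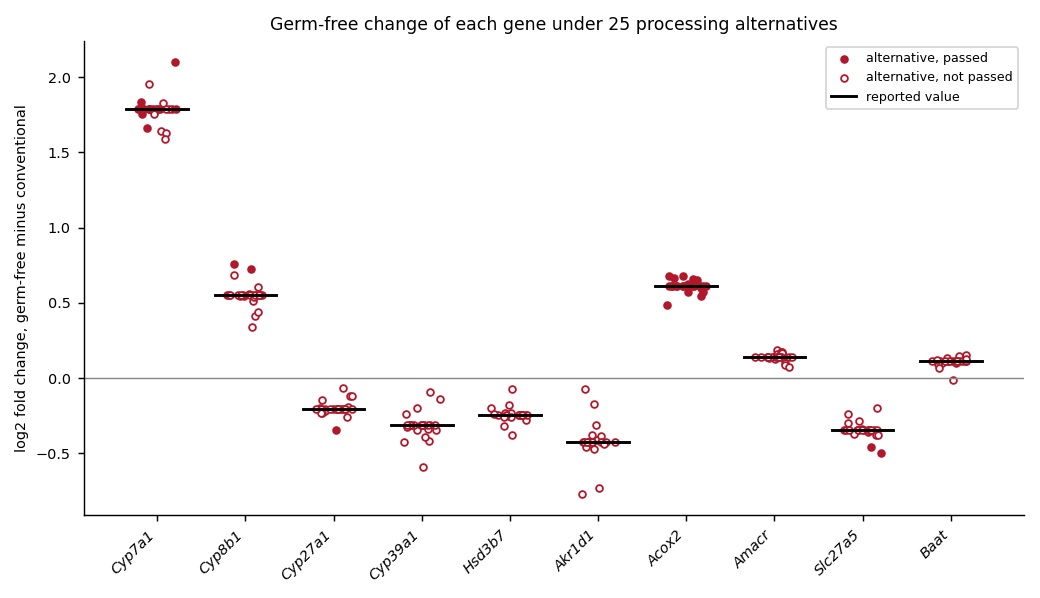
Log2 fold change of each gene in germ-free against conventional livers (vertical axis) under 25 processing alternatives (points, filled where the adjusted p was under 0.05) and as reported (black line). Acox2 passed in all 25, Cyp7a1 in 17, Cyp8b1 and Slc27a5 in 2 each and Cyp27a1 in 1.

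The enzymes shared little variation from animal to animal. Deviations of each animal from the mean of its group were correlated for the 45 pairs of enzymes over the 12 animals, as a description; arrays of 1 animal share their labelling and scaling, and 3 deviations of a group sum to 0. The median correlation was -0.02. Of the pairs, 1 lay above 0.7 (Cyp39a1 with Akr1d1, Pearson's r 0.74, Spearman's rho 0.59) and 4 below -0.7 (Cyp39a1 with Slc27a5, -0.81; Cyp27a1 with Cyp39a1, -0.80; Cyp27a1 with Akr1d1, -0.78; Hsd3b7 with Acox2, -0.72).

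Germ-free animal 1 carried much of this. It lay above its group's mean for Cyp27a1 (log2 deviation 0.28) and Slc27a5 (0.30) and below it for Cyp39a1 (-0.44) and Akr1d1 (-0.70). With its deviations left out, the correlation of Cyp39a1 with Akr1d1 was 0.49 and that of Cyp39a1 with Slc27a5 -0.60. That of Cyp27a1 with Cyp39a1 was then -0.60, that of Cyp27a1 with Akr1d1 -0.57 and that of Hsd3b7 with Acox2 -0.71. The group means were not taken anew, so the deviations of germ-free animals 3 and 4 still mirrored animal 1. These values therefore do not show the correlations free of animal 1. With the 2 animals farthest from the median of the first gene of each pair left out, the correlations were 0.28, -0.57, -0.64, -0.63 and -0.57. There too the group means of all 3 animals were kept. Cyp7a1 showed the widest deviations, from -1.69 in antibiotic animal 13 to 0.86 in antibiotic animal 15.

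**Figure D5:**
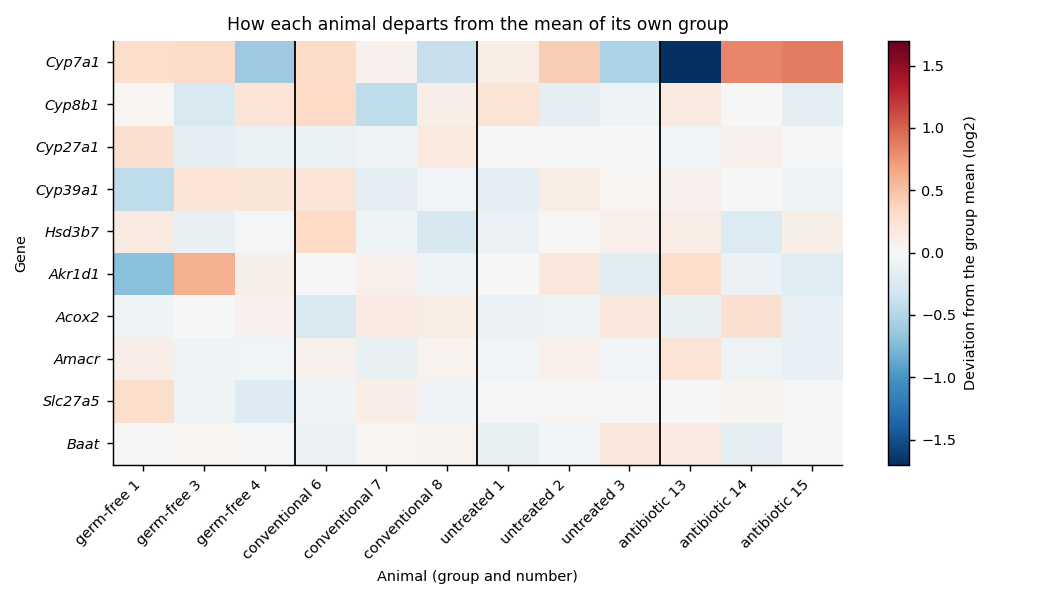
Deviation of each animal (columns, with group and animal number) from the mean of its own group on the log2 scale (colour, red above and blue below) for each gene (rows). Antibiotic animal 13 (-1.69 for Cyp7a1) and germ-free animal 1 (-0.70 for Akr1d1) stand out, and rows do not share a common pattern.

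The genes whose signals followed Cyp7a1 most closely over the 12 animals were Tspan18 (Pearson's r 0.90, Spearman's rho 0.75), Fam149b1 (0.85 and 0.87), Fam168a (0.84 and 0.73), Atg14 (0.84 and 0.69) and Homer1 (0.83 and 0.67). With the 2 animals farthest from the Cyp7a1 median left out, Pearson's r was 0.83, 0.73, 0.72, 0.63 and 0.76, and over deviations from the group means it was 0.76, 0.73, 0.71, 0.61 and 0.57. For Cyp8b1 they were Urad (0.85 and 0.82), Ugt2b (0.83 and 0.78), Slc39a3 (0.81 and 0.76), Kiaa1671 (0.80 and 0.78) and Prkab1 (0.80 and 0.83), with 0.77, 0.72, 0.71, 0.60 and 0.66 without the 2 farthest animals and 0.78, 0.72, 0.54, 0.64 and 0.71 over deviations. These are the highest of 9300 genes, and the points share strain, experiment and array scaling. None of the other 9 enzymes was among them.

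Other genes of the pathway are given one by one. Of 11 further genes of synthesis, 7 were tested, and in germ-free livers 1 rose, 2 fell and 4 did not pass by limma (median log2 0.14). Among all genes 6.44% rose and 6.74% fell there. Cyp3a9, a cytochrome of the family that hydroxylates bile acids, rose by 1.19 ± 0.27. Acot8, a peroxisomal thioesterase, changed by -0.73 ± 0.14 and Hsd17b4, which follows Acox2 in the peroxisome, by -0.36 ± 0.10 (adjusted p = 0.0365 by limma). The Hsd17b4 call was lost in 11 of 25 alternatives, among them on leaving out untreated 1 (0.0514), conventional 6 (0.0735), 7 (0.0665) or 8 (0.0908), or germ-free 3 (0.164) or 4 (0.0544). Abcd3, a peroxisomal importer, had a value of -0.59 ± 0.19 (adjusted p = 0.0518) and passed in 7 of 25 alternatives, among them on leaving out conventional 8 (0.0419), germ-free 1 (0.0258) or antibiotic 14 (0.0360). Of the list, 5 passed in place of 3 without germ-free 1. Acox2 thus rose while its partner Hsd17b4 fell, and in antibiotic-treated livers 0 of the 7 passed by limma, with 4 at an unadjusted p under 0.05.

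The cytochromes depend on electron donors, of which 4 were tested. In germ-free livers 2 fell and 2 did not pass, where 6.74% of all genes fell by limma. Por, the reductase that serves Cyp7a1 and Cyp8b1, changed by -0.48 ± 0.12 (adjusted p = 0.0190 by limma) and Fdx1, the ferredoxin that serves Cyp27a1, by -0.52 ± 0.15 (0.0415), while Cyb5a had 0.14 ± 0.10 and Cyb5r3 -0.11 ± 0.10. The Por call was lost in 5 of 25 alternatives, among them the mean of its probe sets (0.0817). Leaving out an animal lost it for conventional 6 (0.0630) and for germ-free 3 (0.0758) and 4 (0.0719). The Fdx1 call was lost in 12, among them on leaving out conventional 6 (0.0640) or 8 (0.146), germ-free 3 (0.178) or 4 (0.0760), or antibiotic 13 (0.0513) or 15 (0.0524). In antibiotic-treated livers 0 of 4 passed by limma, with 1 at an unadjusted p under 0.05.

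Of all genes 13.2% passed in germ-free livers by limma, and 6.74% fell. Of 6 genes that make, carry or use the taurine or glycine that Baat attaches, 1 fell there and 5 did not pass. It was Csad, the decarboxylase of taurine synthesis, with a signal of 549.0 against 1235 and a log2 change of -1.15 ± 0.15 (adjusted p = 0.000320), which passed in all 25 alternatives. Cdo1, the dioxygenase before it, had 0.27 ± 0.10, Shmt2 0.22 ± 0.13 and Gnmt -0.10 ± 0.10, and with array weights 3 of the list passed in place of 1. In antibiotic-treated livers 0 of 6 passed by limma, with 3 at an unadjusted p under 0.05.

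Of 16 regulators tested, 2 rose, 1 fell and 13 did not pass in germ-free livers by limma. Of all genes 13.2% passed there, so these few calls are near the share among all genes. Fgfr4, the receptor that carries the ileal signal against Cyp7a1, rose by 0.48 ± 0.12 (adjusted p = 0.0181), and Rxra, the partner of many nuclear receptors, by 0.67 ± 0.19 (0.0314). These calls were lost in 6 and 8 of 25 alternatives: for Fgfr4 on leaving out conventional 6 (0.0575) or 8 (0.0568), germ-free 1 (0.0533) or germ-free 3 (0.0587), and for Rxra on leaving out conventional 6 (0.106) or 7 (0.0969), germ-free 3 (0.108) or germ-free 4 (0.109). Nr1i3, a receptor of foreign compounds, changed by -1.55 ± 0.26.

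The repressor Nr0b2, which acts with Nr5a2 against Cyp7a1 and Cyp8b1, had 1.27 ± 0.46 (adjusted p = 0.0828 by limma), Nr1h4, the bile acid receptor, 0.28 ± 0.14 (0.234), Nr5a2 0.21 ± 0.13 (0.310), Hnf4a 0.12 ± 0.12 (0.551) and Ppara 0.81 ± 0.26 (0.0569), and Klb was not analysed here. When probe sets of a gene were averaged rather than the brightest taken, Nr5a2 stood at 0.53 (adjusted p = 0.0462) and Hnf4a at 0.54 (0.0352), both past the threshold, and 5 of the regulators passed in place of 3. Only 1 passed on the 6 Sprague Dawley arrays alone or without germ-free animal 3. Nr0b2 passed without conventional animal 7 (1.80, adjusted p = 0.0156), and Ppara passed in 3 of 24 alternatives, among them those without conventional animal 6 (0.0401) or antibiotic animal 13 (0.0345). In antibiotic-treated livers 0 of 16 passed by limma, with 0 at an unadjusted p under 0.05.

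In germ-free livers 9 of 12 genes of sterol supply tested fell, 0 rose and 3 did not pass by limma (median log2 -1.18). Among all genes 6.74% fell there. Most of the 12 are enzymes that make the cholesterol which Cyp7a1 consumes, but Insig1, Srebf2 and Scarb1 are not. Of these, Insig1 was among those that fell (-0.97 ± 0.21). Idi1 changed by -2.64 ± 0.23, Cyp51 by -2.41 ± 0.17 and Msmo1 by -2.31 ± 0.27, beside 1.79 for Cyp7a1 in the same livers. Sqle read only 19.2 ± 14.8 (SD, n = 3) in germ-free livers against 257 ± 59.5, so that the size of its change depends on the offset: -3.01 ± 0.27 with 16, -3.88 with 1 and -1.94 with 64. In antibiotic-treated livers 0 of the 12 passed by limma, with 0 at an unadjusted p under 0.05 (median -0.08).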

How the data were processed

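Liver RNA of 12 rats was labelled with biotin and hybridised to Affymetrix arrays, per the labels' protocols. The deposited values are linear intensities, 1 for each of 31099 probe sets on each array, with no call of presence. MAS5 made them, per the submitters' processing notes, with no version stated there. Means trimmed by 2% at each end were nearly equal across arrays, so no scaling was added. The labels name streptomycin (4 mg/ml), penicillin (2 mg/ml) and a 10X stock, and do not settle whether these concentrations are those of the stock.

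Control probe sets (57) were set aside. Symbols came from the platform annotation and were updated through gene identifiers (20758) or accessions (2) to the GRCr8 table, and 66 were kept. A probe set entered the test if its mean over the arrays reached the median of all (19.67), and the brightest stood for its gene (9300 genes). Values were fitted as log2(signal + 16) with limma 3.58.1 in R 4.3.3 (eBayes with a trend, 1 mean per group, all 12 arrays, 8 residual degrees of freedom). P-values are two-sided, with a threshold of 0.05 after adjustment. The number of arrays limits the precision; the median standard error was 0.144. The fit was checked on simulated data. The members, gene lists, tests and alternatives were chosen with earlier results of these data known. Named were all members, per further list up to 4 genes by smallest p in the germ-free comparison (clock list 3), every list gene called in another contrast (clock list excepted), 6 regulators always, and the 5 genes most correlated with Cyp7a1 and with Cyp8b1. Motifs were searched in RefSeq promoters (GRCr8). Alternatives changed the offset (1 or 64), filter, normalization, variance model, arrays fitted, probe set rule, actin covariate and animals.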

Additional observations from a re-analysis of the deposited data

Results flagged for a closer look

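Changes that differed between the germ-free and the antibiotic comparison, by limma's test of the difference itself (adjusted p under 0.05), are given here for the genes named; 0 of the 10 enzymes passed it. Groups of 3 animals were too small for the outlier test used elsewhere. For Por the difference (germ-free change minus antibiotic change, log2 ± SE) was -0.65 ± 0.17 (-0.48 in germ-free and 0.17 in antibiotic-treated livers, adjusted p = 0.0412). The mean signal of its probe set was 1456 in germ-free and 2040 in conventional livers, but 353 in untreated and 396 in antibiotic-treated livers. The difference passed in 9 of 24 alternatives, and with the mean of the Por probe sets it was -0.54 (adjusted p = 0.0966 by limma). For Fgfr4 it was 0.67 ± 0.17 (0.48 and -0.19, adjusted p = 0.0352), passing in 14 of 24, and for Nr1i3 -1.36 ± 0.36 (-1.55 and -0.19, adjusted p = 0.0425), passing in 9 of 24. For Cyp3a9 it was 1.85 ± 0.39 (1.19 and -0.66, adjusted p = 0.0133), which passed in all 24.

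Among genes of sterol supply the difference was -2.98 for Sqle (-3.86 with an offset of 1 and -1.92 with 64), -2.30 for Idi1, -2.20 for Msmo1, -2.08 for Cyp51, -1.27 for Fdps (-1.52 in germ-free and -0.25 in antibiotic-treated livers) and -1.25 for Dhcr7 (-1.24 and 0.01), each of which passed in all 24 alternatives. Among clock genes it was 2.32 for Nr1d2, 1.55 for Dbp (0.98 with an offset of 64) and -1.25 for Cry1. For Nr1d2 and Cry1 it passed in all 24, and for Dbp in 22 of 23. The cause of these differences was not tested, and strain, experiment and treatment cannot be told apart in them.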

How the results depend on the processing

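No paired analysis was possible because the groups compared share no animal numbers (1, 3 and 4 against 6, 7 and 8, and 1, 2 and 3 against 13, 14 and 15). Of the 10 enzymes, 2 passed in the germ-free comparison, but 1 with no signal filter, 1 with a robust prior, 1 with the actin ratio as a covariate and 4 with array weights, and 1 to 3 when single animals were left out. With every probe set fitted, 1 passed, 0 under median centring and 0 to 2 without single animals. In the difference between the comparisons 0 passed, 1 with array weights and 0 to 1 without single animals. Over all genes, the germ-free count of 1226 was 606 with the actin covariate and 654 to 1236 without single animals, lowest without germ-free animal 3. The antibiotic count of 2 was 1 with an offset of 1, 4 with no filter, 0 with the 75th percentile filter, 6 with a robust prior, 15 with array weights and 0 to 10 without single animals. The count for the difference of 552 was 869 with array weights, 230 with the actin covariate and 296 to 600 without single animals.

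Signs turned only for values that had not passed. Under quantile normalization Baat stood at -0.011 in germ-free livers, and in antibiotic-treated livers Cyp27a1 stood at -0.034, Amacr at -0.015, Slc27a5 at -0.031 and Baat at -0.018; the difference became 0.029 for Cyp8b1, 0.12 for Amacr and 0.0074 for Baat. With array weights the difference became 0.13 for Cyp8b1, 0.025 for Cyp39a1 and 0.029 for Amacr. Without single animals the antibiotic change ran from -0.67 to 0.61 for Cyp7a1 and from -0.11 to 0.11 for Acox2. The difference ran from -0.31 to 0.070 for Cyp8b1, from -0.27 to 0.061 for Cyp39a1, from -0.22 to 0.082 for Hsd3b7 and from -0.11 to 0.071 for Amacr. The cause was not tested. The deposited signals carry no detection calls, so whether a dim probe set lay above background is unknown, and 3 animals a group limit every comparison.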
